A study of Homo sapiens with 8 samples.

Results

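The comparison described here is the knockdown change in the polysome-to-total ratio, that is, how far the share of an mRNA found on polysomes, relative to all other mRNAs, differed between EIF4G2-depleted and control cells. For each gene it is the polysome-to-total log2 difference in knockdown cells minus that in scramble cells, which is the interaction of hairpin and RNA fraction. All 8 libraries of the series enter it. A gene was tested where at least 10 counts were reached in 2 or more libraries of each fraction, which kept 13262 of the 59385 gene symbols in the table (30065 symbols had any count). No fold change entered the choice of genes.

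The cells were IHCF, an immortalized line of human cardiac fibroblasts, transduced by lentivirus with an eIF4G2 shRNA (short hairpin RNA) or a scramble (Scr) shRNA. The 4 groups crossed hairpin with RNA fraction, total or polysomal, with 2 libraries each, and all cells had been serum-starved (6 h or longer) before 24 h with TGF-beta, so nothing here measures the response to TGF-beta. Their medium contained insulin at 5 µg/ml. The labels name 1 hairpin and no rescue, so effects of that hairpin on other targets and those of EIF4G2 depletion cannot be told apart. Libraries are called biological replicates, but nothing says that they came from separate cultures, and the spread behind the p-values may be technical. Further replicates that the design text speaks of were not analysed here, and how polysomes were isolated was not given in the sources used here.

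EIF4G2, also named DAP5, is a relative of EIF4G1, the scaffold that joins the cap-binding protein eIF4E to the helicase eIF4A and, through eIF3, to the small ribosomal subunit. It lacks the part that binds eIF4E and is known for initiation on a subset of mRNAs by routes that do not use the eIF4E-bound cap complex. Polysomes are mRNAs that carry several ribosomes, and an mRNA can leave them without any change in its total level. The comparison asks which mRNAs of activated fibroblasts depend on EIF4G2 for their place on polysomes.

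Because EIF4G2 acts at initiation, the start sites of mRNAs that the results turn on are shown first. Each line gives 15 bases before the annotated start codon, the start codon in capitals and 9 bases after it, 5′ to 3′ on the strand of the mRNA, from GENCODE transcripts of GRCh38.
EIF4G2: tgtcaagccgccaaaGTGgagagtgcg
OSBPL5: ccgagcgcccacagcATGaaggaggag
SPPL2B: cgggcaccggccgacATGgcggcagcg
TAGLN: cttctttccccagacATGgccaacaag
CHAC1: ttaaagggcgcctccATGgggggcgct
COL1A1: gtctagggtctagacATGttcagcttt
COL1A2: gtctaagtgctagacATGctcagcttt
S1PR1: cacagggttggcaccATGgggcccacc
EIF4G2 itself starts at GTG (chromosome 11, minus strand, first base 10807295), the only GTG among 11250 annotated start codons of tested genes, of which 11246 were ATG. The type I collagen windows, COL1A1 (chromosome 17, minus strand, 50201513) and COL1A2 (chromosome 7, plus strand, 94395032), were identical at 23 of 27 bases. The other start codons begin on chromosome 11 at 3129148 (OSBPL5, minus strand), on chromosome 19 at 2328710 (SPPL2B, plus), on chromosome 11 at 117203014 (TAGLN, plus), on chromosome 15 at 40953458 (CHAC1, plus) and on chromosome 1 at 101238985 (S1PR1, plus).

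Total counts per library ran from 18043714 to 24590030. Polysome replicates differed more than total replicates, with a standard deviation between log2 values of replicates over genes of 0.19 and 0.263 in total RNA and of 0.453 and 0.575 in polysomal RNA (scramble and knockdown). Certain libraries stood apart. Knockdown polysome replicate 1 lay at −60.62 on a principal component with 6.61% of the variance, where the others lay between −2.293 and 26.13. On the next component, with 4.24%, knockdown polysome replicate 2 lay at −43.71, where the others lay between −5.635 and 31.04. On the first, with 82.7%, knockdown total replicate 1 lay at −70.78, against −95.65 to −92.8 in the other total libraries. In scramble polysome replicate 1 mitochondrially encoded genes took 7.12% of counts, against 14.5 to 17.5% in the other polysome libraries. In knockdown total replicate 1 the median transcript length per count was 2769 nt, against 3062 to 3104 nt in the other total libraries. Of 14 fibroblast markers 11 were tested, and their summed level in total RNA was 5720 to 5810 CPM (counts per 1000000 of the TMM-scaled library) in scramble and 6290 to 6300 CPM in knockdown libraries. The cardiomyocyte markers MYH6 and MYH7 had 0 counts in all libraries, and 2 of 12 cardiomyocyte markers were tested. Epithelial markers, the keratins KRT8 and KRT18 among them, summed to 1480 to 1510 CPM in scramble and 1260 to 1470 CPM in knockdown total RNA, and to 3040 to 3100 against 2140 to 2200 CPM in polysomal RNA. Mural cell markers, of which 4 of 8 were tested, summed to 482 to 500.0 CPM in scramble, against 389 to 462 CPM in knockdown total RNA, and to 106 to 136 against 75.3 to 92 CPM in polysomal RNA. In polysomal RNA cardiomyocyte markers summed to 24 to 24.8 CPM in scramble and 4.97 to 11.5 CPM in knockdown libraries. Endothelial markers were higher there, at 136 to 144 against 147 to 155 CPM. Fibroblast (5950 to 6530 against 6100 to 6640 CPM) and leukocyte markers (8.44 to 9 against 6.92 to 14.3 CPM) overlapped. In bulk RNA, fewer cells of a type and less RNA per cell cannot be told apart. The part of these differences in the results below was not tested.

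EIF4G2 mRNA was lower in both fractions, and the interval of its ratio change included 0. In total RNA it stood at 828 and 819 CPM in scramble, against 296 and 341 CPM in knockdown replicates 1 and 2. In polysomal RNA the values were 865 and 830.4 CPM in scramble, against 233 and 325 CPM in knockdown. The libraries of the 2 hairpins did not overlap in either fraction. The log2 difference was −1.60 in polysomes (edgeR adjusted p = 0.0461) and −1.37 in total RNA (edgeR adjusted p = 0.0551, DESeq2 adjusted p = 3.97e-10). The polysome call is 1 of 2 that edgeR made in that fraction, and without any 1 library other than knockdown polysome replicate 2 edgeR called 0 or 1 gene there. The ratio change was −0.23 ± 0.26 (SE), with a 95% interval from −0.80 to 0.33. EIF4G1 had a ratio change of −0.46 ± 0.26 (edgeR unadjusted p = 0.115).

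Across all tested genes the polysome-to-total ratio differed little between the hairpins compared with how much it differed between genes. The standard deviation over genes was 1.56 for the log2 ratio in scramble and 1.57 in knockdown cells, and 0.608 for the difference between them. Across genes the scramble and knockdown ratios, which share no library, had a Pearson r of 0.925, a description only because genes are not independent. The median ratio change was −0.04, and 90 percent of genes lay between the 5th percentile of −0.89 and the 95th of 0.78. The median 95% interval reached 0.72 to each side of a gene's value, so a 1.5-fold change of a typical gene lay within the error.

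No gene passed the test of the ratio change in edgeR's quasi-likelihood model, 0 of 13262 (0%), with a lowest adjusted p of 0.835. At an unadjusted edgeR p under 0.05 there were 726 genes (5.47%), where an even spread of p-values would give 663.1. Of these, 493 (3.72% of tested genes) had a lower and 233 (1.76%) a higher ratio in knockdown cells. DESeq2 called 4 genes (0.0302%), OSBPL5, SPPL2B, EME2 and CDIP1, and limma voom called 0 (687 genes, 5.18%, at an unadjusted p under 0.05). With no filter on low counts edgeR called 64 genes, 48 of them among the 13262, in a fit whose prior degrees of freedom were infinite, against 6.12 with the filter. Genes named below are therefore given by their values, and for the ratio change none had an edgeR adjusted p under 0.835.

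**Figure D1:**
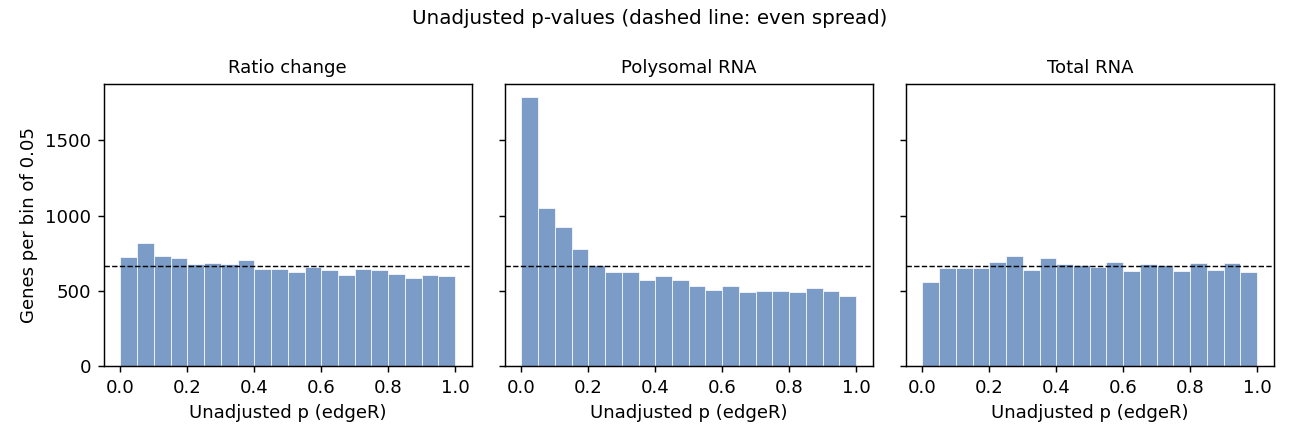
Number of genes (y axis) per bin of 0.05 of the unadjusted edgeR p (x axis) for the ratio change and for knockdown against scramble in polysomal and in total RNA. The lowest bin holds 726, 1788 and 558 of 13262 genes, and the dashed line marks an even spread. Both fractions shared a variance estimate per gene, so the polysomal and total counts are not directly comparable.

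The fractions contributed unequally. At an unadjusted edgeR p under 0.05, 1788 genes (13.5%) differed in polysomal RNA and 558 (4.21%) in total RNA. Both fractions shared a variance estimate per gene in this fit. The biological coefficient of variation, a measure of spread between replicates, was 0.237 in polysome and 0.107 in total libraries. The p-values may therefore be too small in polysomal and too large in total RNA. The part of this in the gap between the counts was not tested. Each of the 726 genes was assigned by where its difference lay: mainly in polysomes, mainly in total RNA, or in both with opposite sign. Among the 493 with a lower ratio, 305 differed mainly in polysomes, 62 mainly in total RNA and 126 in opposite directions. Among the 233 with a higher ratio these numbers were 151, 15 and 67. Values from the same contrast chose and sorted these genes, so the shares are a description. Differing mainly in polysomes were 61.87% of the genes with a lower and 64.81% of those with a higher ratio, where 53.9% and 51.95% of all tested genes of each direction did so.

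**Figure D2:**
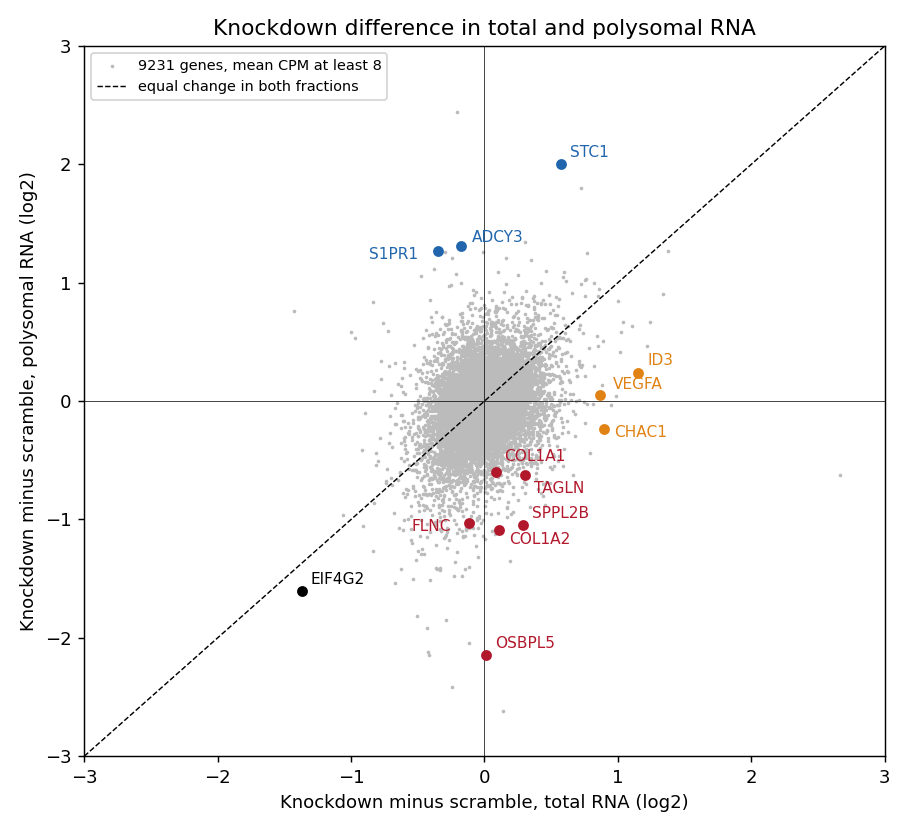
Knockdown minus scramble in total RNA (x axis, log2) and in polysomal RNA (y axis, log2) for 9231 genes with a mean of at least 8 CPM (genes beyond 3 on either axis, such as PPL at −4.39 in polysomes, are not drawn); the vertical distance from the dashed line is the ratio change. OSBPL5 lies at 0.01 and −2.15, CHAC1 at 0.89 and −0.24, and S1PR1 at −0.35 and 1.26, while EIF4G2 lies near the line.

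OSBPL5 and SPPL2B had lower polysomal levels without a lower total level. OSBPL5 (chromosome 11, 3087116 to 3166739, minus strand) encodes an oxysterol-binding-protein relative that carries lipids between the endoplasmic reticulum and the plasma membrane. Its total level was 19.3 and 18.7 CPM in scramble, against 17.9 and 20.4 CPM in knockdown libraries. On polysomes it stood at 6.27 and 5.46 CPM in scramble, against 1.74 and 0.824 CPM in knockdown libraries. The total values overlapped and the polysomal values did not. The ratio change was −2.16 ± 0.40, with a 95% interval from −3.06 to −1.26 (edgeR adjusted p = 0.847, DESeq2 adjusted p = 0.0219). It was −1.76 without knockdown polysome replicate 2 and −2.83 without replicate 1, on the low counts of this gene.

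SPPL2B (chromosome 19, 2328615 to 2354806, plus strand) encodes a signal-peptide-peptidase-like protease that cuts membrane proteins within the membrane. Its total level was 28.0 and 27.5 CPM in scramble, against 34.7 and 33.1 CPM in knockdown libraries. On polysomes the values were 12.6 and 13.6 CPM in scramble, against 6.33 and 6.34 CPM in knockdown. The hairpins did not overlap in either fraction, and they differed in opposite directions. The ratio change was −1.33 ± 0.24, with a 95% interval from −1.87 to −0.80 (edgeR adjusted p = 0.847, DESeq2 adjusted p = 0.033). Leaving out any 1 library gave −1.38 to −1.28. SPPL2B overlaps LSM7 on the opposite strand and AC005258.1 on the same strand, and no strand setting of the counting was given.

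The relatives of these proteins did not stand with them. Of 12 oxysterol-binding proteins 5 had a ratio change below 0 and the median was 0.03, against 54.2% below 0 and a median of −0.04 over all tested genes. OSBPL9 was at 0.22, OSBPL8 at 0.15 and OSBP, the founding member, at −0.03. Of 12 intramembrane proteases and their partners 6 were below 0, with a median of −0.04. SPPL2A stood at 0.13 and SPPL3 at 0.10. Without 1 library the medians ran from −0.08 to 0.23 in the oxysterol-binding proteins (lowest without knockdown polysome replicate 1, highest without replicate 2) and from −0.09 to 0.07 in the proteases (without scramble polysome replicate 1 and 2). In both families 1 member, OSBPL5 or SPPL2B, had an unadjusted edgeR p under 0.05.

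The other genes called by DESeq2 rested on few counts. They had a mean under 8 CPM, outside the rule for named genes, and were named after their values were seen. EME2, a partner of the DNA-repair nuclease MUS81, had 32 and 20 polysomal counts in scramble and 0 and 0 in knockdown libraries, with 358 and 257 against 330 and 372 counts in total RNA. Its knockdown level was at least 13.1-fold lower in polysomes, set against a floor of 3 counts over the group. EME2 overlaps SPSB3 on the opposite strand, and no strand setting of the counting was given. CDIP1, which acts in cell death, had 8 and 4 polysomal counts in scramble and 57 and 18 in knockdown libraries. Its total counts were 187 and 163 against 138 and 109, and the ratio change was 3.64 ± 0.69 (DESeq2 adjusted p = 0.033). CDIP1 overlaps AC023830.3 on the same strand.

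Among genes of at least 8 CPM, the 10 with the smallest unadjusted edgeR p and a lower ratio were OSBPL5, SPPL2B, PPL, FAM160B2, CCNL2, DAPK3, ARFRP1, WNT5B, ID3 and RN7SL1. PPL, the plakin periplakin, held 59 polysomal counts in the scramble and 2 in the knockdown libraries, a ratio of 22.4 with a counting interval of 5.92 to 189. Its total level was also lower, at 30.8 and 31.6 CPM in scramble against 17.0 and 23.4 CPM in knockdown. FAM160B2 was at 3.64 and 3.49 CPM in scramble, against 0.323 and 1.07 CPM in knockdown polysomes (−2.18 ± 0.51, and −1.49 without knockdown polysome replicate 1). WNT5B, a secreted WNT ligand, stood at 46.5 and 62.1 CPM in scramble, against 30.4 and 33.2 CPM in knockdown polysomes. In total RNA it stood at 9.86 and 9.27 against 13.7 and 12.0 CPM, so that the fractions differed in opposite directions (ratio change −1.20 ± 0.26). CCNL2, a cyclin linked to splicing (−0.94), DAPK3, a kinase that acts on myosin (−0.87), and ARFRP1, a GTPase of the Golgi (−0.99), likewise stood higher in both knockdown total and lower in both knockdown polysome libraries. This arrangement held for 426 of the 13262 genes (3.21%), and the reverse, as in S1PR1, PHF21A, RAB8A and AIDA below, for 316 (2.38%). RN7SL1 is the RNA of the signal recognition particle and not an mRNA, and its knockdown total values were 230.3 and 85.2 CPM, against 25.7 and 24.1 CPM in scramble.

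ID3 and CHAC1 had higher total levels in knockdown cells, with smaller differences in polysomes. ID3, an inhibitor of DNA-binding transcription factors and a target of BMP signalling, stood at 20.6 and 21.2 CPM in scramble total, against 50.3 and 42.5 CPM in knockdown total RNA. On polysomes it was at 278 and 247 CPM in scramble, against 285 and 335 CPM in knockdown. All 4 knockdown values lay above the scramble values of the same fraction, by more in total RNA (log2 difference 1.15) than in polysomes (0.24). The polysome-to-total fold was 12.6 in scramble and 6.69 in knockdown cells (ratio change −0.91 ± 0.21). CHAC1, a glutathione-degrading enzyme and a target of ATF4, was at 3.48 and 4.91 CPM in scramble total, against 7.61 and 7.94 CPM in knockdown total libraries. Its polysomal values were 51.7 and 38.6 CPM against 37.1 and 39.5 CPM and overlapped. The ratio change of CHAC1 was −1.13 ± 0.30 (edgeR unadjusted p = 0.00395, DESeq2 adjusted p = 0.365), and −0.90 to −1.39 without any 1 library.

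**Figure D3:**
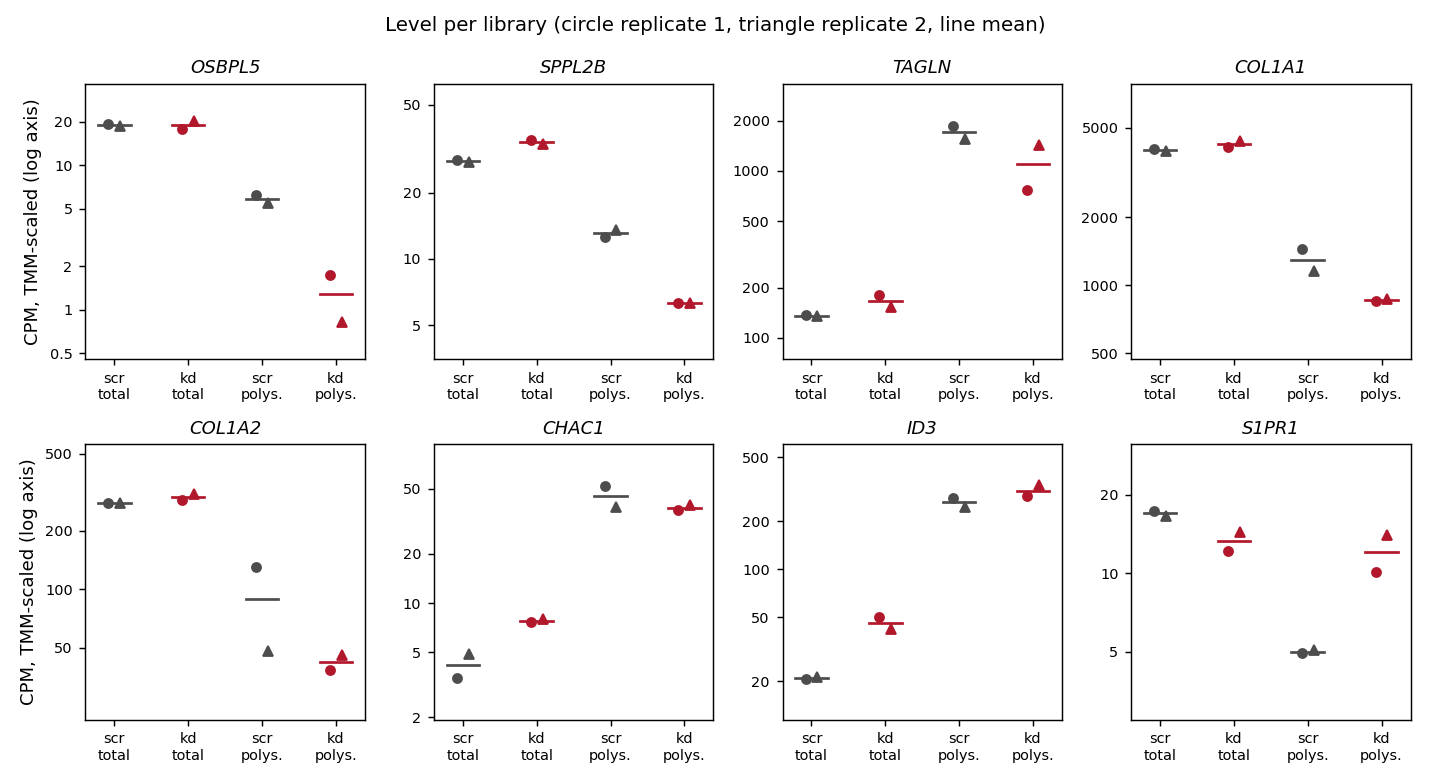
CPM after TMM scaling (log y axis) of 8 genes in every library, grouped on the x axis as scramble (scr) and knockdown (kd) total and polysomal RNA; points are libraries and lines are means of 2. OSBPL5, SPPL2B and COL1A1 are lower in both knockdown polysome libraries, CHAC1 and ID3 are higher in both knockdown total libraries, and S1PR1 is higher in both knockdown polysome libraries.

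In the opposite direction the 10 genes were S1PR1, STC1, ADCY3, PHF21A, RAB8A, NAP1L4, RUSF1, DYM, AIDA and SPCS2P4. S1PR1, a receptor for sphingosine 1-phosphate, was at 17.4 and 16.6 CPM in scramble, against 12.2 and 14.5 CPM in knockdown total RNA. Its polysomal values were 4.93 and 5.06 CPM in scramble, against 10.1 and 14.0 CPM in knockdown. The ratio change was 1.61 ± 0.32, with a 95% interval from 0.89 to 2.33 (DESeq2 adjusted p = 0.0604). STC1, the secreted glycoprotein stanniocalcin, rose in polysomes from 3.00 and 2.19 to 10.3 and 10.6 CPM (log2 difference 2.00, edgeR adjusted p = 0.0461). Its total level stood at 19.01 and 18.5 against 25.1 and 30.7 CPM, and the ratio change was 1.43 ± 0.31.

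STC1 and EIF4G2 were the 2 genes (0.0151%) that edgeR called in polysomal RNA, and neither was called with a replicate block. The shared variance estimate given above applies to both calls. DESeq2 called 230 genes (1.73%) in polysomal RNA, of which 132 (0.995%) were lower. The contrast of polysomal with total RNA within a hairpin was far larger, with 8998 genes (67.8%) called by edgeR in scramble and 8867 (66.9%) in knockdown cells. ADCY3, an adenylate cyclase that makes cyclic AMP, was at 6.00 and 5.79 CPM in scramble, against 17.9 and 11.2 CPM in knockdown polysomes (1.48 ± 0.37), with overlapping total values. DYM, a Golgi protein, had close total levels (29.6 and 29.4 against 29.6 and 29.5 CPM) and polysomal levels of 37.2 and 35.3 against 68.9 and 55.8 CPM (0.78 ± 0.22). NAP1L4, a histone chaperone, had knockdown polysome values of 25.2 and 9.23 CPM, on either side of the scramble values of 9.37 and 11.1 CPM (2.18 ± 0.53). PHF21A, a chromatin reader (1.29 ± 0.31), RAB8A, a GTPase of vesicle transport (1.03 ± 0.26), and AIDA (0.75 ± 0.21) were lower in both knockdown total and higher in both knockdown polysome libraries. RUSF1 had a ratio change of 1.46 ± 0.40. SPCS2P4 is a processed pseudogene, and its reads may belong to its parent gene.

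The structural extracellular matrix genes, which encode the collagens, laminins and glycoproteins that fibroblasts secrete, mostly had a lower ratio in knockdown cells. Of 46 tested members 41 were below 0, and the median was −0.35, against 54.2% of all tested genes below 0 and a median of −0.04. In 16 members every knockdown ratio lay below every scramble ratio and in 2 above, where 11.9% and 8.55% of all genes did so. At an unadjusted edgeR p under 0.05, 8 were lower and 0 higher, against 3.72% and 1.76% of all tested genes, and none was called. The median difference was −0.44 in polysomal and −0.01 in total RNA. Without scramble polysome replicate 1 the number below 0 was 32, and without knockdown total replicate 2 it was 33. Over the fits without 1 library the median ran from −0.47 to −0.23. Of the summed cell type markers given above, epithelial, mural and cardiomyocyte markers were likewise lower in knockdown polysomes. Endothelial markers were higher, and fibroblast and leukocyte markers overlapped. The part of these differences in the matrix values was not tested.

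Type I collagen, the main fibrillar collagen of scar, had lower polysomal values in knockdown cells. COL1A1 stood at 1441 and 1153 CPM in scramble, against 846 and 871 CPM in knockdown polysomes, and at 4031 and 3934 against 4091 and 4348 CPM in total RNA. The libraries of the hairpins did not overlap in polysomes (ratio change −0.68 ± 0.27, edgeR unadjusted p = 0.0291). The polysome-to-total fold of COL1A1 was 0.326 in scramble and 0.204 in knockdown cells. COL1A2 was at 129.8 and 48.4 CPM in scramble polysomes, a gap wider than that to the knockdown values of 38.3 and 45.8 CPM. Its ratio change of −1.19 ± 0.48 was −0.31 without scramble polysome replicate 1 and −1.73 without replicate 2.

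Among the other matrix genes, the basement membrane members LAMA1, LAMB2 and AGRN were lower. LAMA1, a laminin chain, was at 3.27 and 2.87 CPM in scramble, against 0.517 and 1.24 CPM in knockdown polysomes (−1.56 ± 0.48). LAMB2, another laminin chain, was at 13.1 and 18.7 against 10.98 and 9.39 CPM in polysomes (−0.72 ± 0.26). AGRN, the heparan sulfate proteoglycan agrin, was at 22.3 and 22.3 against 17.4 and 16.6 CPM in polysomes and at 462 and 435 against 489 and 572 CPM in total RNA (−0.63 ± 0.20). COL11A1, a minor fibrillar collagen, had a ratio change of −1.99 ± 0.63 on under 4 CPM in every library. THBS1, a matricellular protein that activates latent TGF-beta, stood at 1326 and 1245 CPM in scramble, against 1943 and 2397 CPM in knockdown total RNA, with overlapping polysomal values (−0.94 ± 0.31). CCN2, the TGF-beta-induced connective tissue growth factor, was at 550.0 and 579 against 429 and 406 CPM in polysomes, with overlapping total values (−0.45 ± 0.19). The 5 members above 0 included THBS2 (1.49 ± 0.71, under 1 CPM in each polysome library) and BGN (0.51 ± 0.25).

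**Figure D4:**
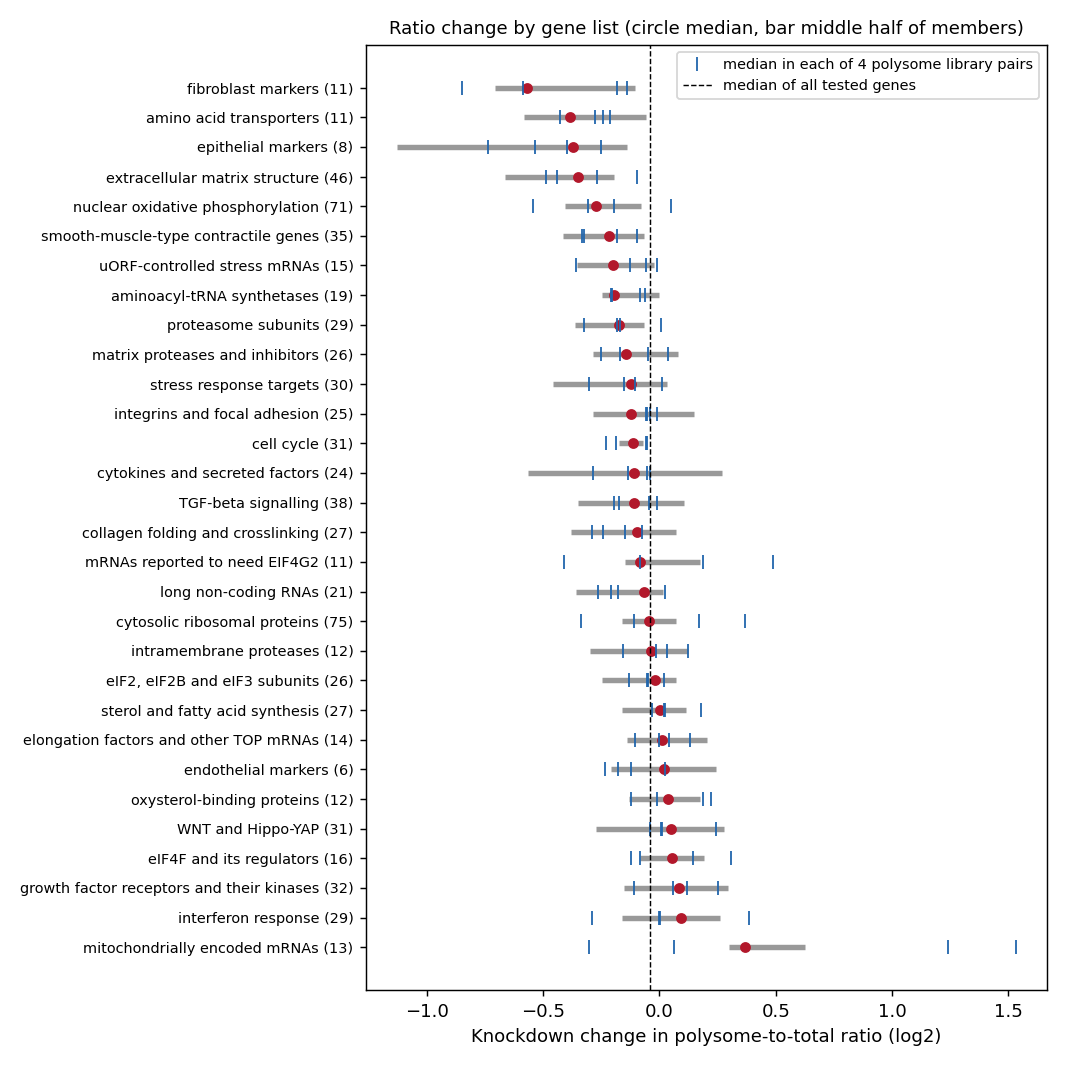
Ratio change (x axis, log2) for gene lists with at least 5 tested members, except a list not reported here (y axis, number tested in brackets): the circle is the median, the grey bar spans the 25th to the 75th percentile of members, and blue ticks are medians for each of 4 pairs of a knockdown and a scramble polysome library. Matrix genes lie at −0.35 with all ticks below 0, whereas the ticks of mitochondrially encoded mRNAs lie on both sides of 0.

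The contractile genes of smooth muscle type, the actin-binding and filament proteins that mark myofibroblasts, had 29 of 35 members below 0 and a median of −0.22. At an unadjusted edgeR p under 0.05, 4 were lower and 0 higher, against 3.72% and 1.76% of all tested genes. Over the fits without 1 library the median ran from −0.31 to −0.17. With the trend over GC content described below subtracted, 26 members lay below 0 and the median was −0.13. At an unadjusted p under 0.05 recomputed from the edgeR standard errors, 1 member was then lower, where 2.05% of all genes were. With the trend over transcript length subtracted instead, 26 lay below 0 and the median was −0.20. At a p recomputed in the same way 1 member was lower, where 2.76% of all genes were. Without knockdown polysome replicate 1, 28 members lay below 0 and the median was −0.17. Mural cell markers, which mark contractile cells of vessel walls, summed to less in knockdown libraries of both fractions (389 to 462 against 482 to 500.0 CPM in total, 75.3 to 92 against 106 to 136 CPM in polysomal RNA), and their part in this was not tested. TAGLN, the actin-binding protein transgelin, was at 1853 and 1560 CPM in scramble, against 774 and 1436 CPM in knockdown polysomes. Its total level was 137 and 134 against 182 and 153 CPM. The hairpins did not overlap in either fraction, but the low polysomal value came from replicate 1, and the ratio change of −0.93 ± 0.36 was −0.55 without it. TPM2, a tropomyosin, had the same arrangement, with 1367 and 1616 against 813 and 1296 CPM in polysomes (−0.79 ± 0.33, and −0.49 without knockdown polysome replicate 1).

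The filamins crosslink actin. FLNC was at 24.7 and 18.1 CPM in scramble, against 8.79 and 12.3 CPM in knockdown polysomes, with overlapping total values (−0.92 ± 0.30). FLNA was at 296 and 289 against 123 and 206 CPM in polysomes and at 2681 and 2579 against 2030 and 2567 CPM in total RNA (−0.64 ± 0.34, edgeR unadjusted p = 0.0882). ACTA2, the smooth muscle actin used to define myofibroblasts, was a low mRNA here at 4.77 to 6.56 CPM in total RNA, and its ratio change was 0.15 (−0.30 to 0.48 without 1 library).

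Among TGF-beta signalling genes 22 of 38 were below 0 with a median of −0.11 (−0.20 to −0.03 without 1 library), near the background. TGFBR2, the ligand-binding receptor, stood at 58.5 and 72.7 CPM in scramble, against 98.3 and 103 CPM in knockdown polysomes, with overlapping total values (0.57 ± 0.22). TGFBR3, the co-receptor betaglycan, was at −2.11 ± 0.80 on at most 1.29 CPM in polysomes. LTBP3, which holds latent TGF-beta in the matrix, was at 41.0 and 45.1 against 28.9 and 30.7 CPM in polysomes (−0.50 ± 0.19).

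The secreted factors spread in both directions. Of 24 cytokines and secreted factors 5 were lower and 3 higher at an unadjusted edgeR p under 0.05, against 3.72% and 1.76% of all tested genes, with a median of −0.11. The median ran from −0.20 to −0.0008 without 1 library. VEGFA, the endothelial growth factor, was at 53.7 and 56.6 CPM in scramble, against 91.6 and 109 CPM in knockdown total RNA. Its polysomal values were 21.9 and 21.3 against 25.3 and 19.5 CPM and overlapped (−0.81 ± 0.24). The neurotrophin BDNF (−0.90 ± 0.28) and the growth factor FGF2 (−0.55 ± 0.22) were higher in both knockdown total and lower in both knockdown polysome libraries. TNFRSF11B, the decoy receptor osteoprotegerin, was at 4.50 and 6.02 CPM in scramble, against 17.2 and 19.4 CPM in knockdown polysomes (1.07 ± 0.34). ANGPTL2, an angiopoietin-like protein, was at 0.58 ± 0.22.

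In the WNT and Hippo-YAP list 14 of 31 members were below 0 (median 0.05), and 4 were lower and 1 higher at an unadjusted edgeR p under 0.05 (3.72% and 1.76% of all tested genes). The median was −0.08 without knockdown total replicate 1 and 0.18 without replicate 2. ANKRD1, a target of YAP, was at 65.6 and 82.3 CPM in scramble, against 26.0 and 29.8 CPM in knockdown polysomes, and its total level was 6.41 and 7.36 against 5.07 and 5.60 CPM (−1.04 ± 0.26). Besides WNT5B and ANKRD1 the lower members were the WNT receptors FZD8 (−1.39) and FZD7 (−0.94), and the higher one was the signal adaptor DVL3 (0.70). Growth factor receptors and their kinases had 12 of 32 members below 0 and a median of 0.08. Leaving out knockdown polysome replicate 1 gave a median of −0.01, and leaving out knockdown total replicate 2 gave 0.26.

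The amino acid transporters of the stress response had 9 of 11 members below 0 and a median of −0.38. In 6 of them every knockdown ratio lay below every scramble ratio, as in 11.9% of all tested genes. With the GC trend subtracted 8 lay below 0 and the median was −0.20. SLC7A5, the light chain of a large neutral amino acid exchanger, stood at 156 and 156 against 198 and 200.1 CPM in total RNA and at 89.8 and 108 against 70.1 and 88.5 CPM in polysomes (−0.67 ± 0.22). Its heavy chain SLC3A2 stood at 131 and 133 against 171 and 162 CPM in total RNA and at 334 and 403 against 283 and 323 CPM in polysomes (−0.62 ± 0.21). In both subunits the fractions differed in opposite directions with no overlap. SLC7A11, the cystine carrier that also pairs with SLC3A2, had a total level of 4.60 and 4.01 against 10.1 and 10.7 CPM and overlapping polysomal values (−1.02 ± 0.45).

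Targets of the integrated stress and unfolded protein responses, other than the transporters, had 21 of 30 members below 0 and a median of −0.12 (−0.24 to −0.08 without 1 library). PCK2, a mitochondrial enzyme of gluconeogenesis, stood at 15.4 and 15.9 against 23.7 and 21.4 CPM in total RNA and at 105 and 116 against 98.1 and 108 CPM in polysomes (−0.63 ± 0.20). PHGDH, the first enzyme of serine synthesis, stood at 127 and 128 against 182 and 166 CPM in total RNA, with overlapping polysomal values (−0.51 ± 0.19). The median of this list was 0.17 in total and −0.11 in polysomal RNA.

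Stress mRNAs whose upstream reading frames control initiation had 12 of 15 members below 0 with a median of −0.20. The median was −0.04 without knockdown polysome replicate 2 and −0.10 without scramble polysome replicate 1, with 9 below 0 in each case. ATF4, the transcription factor of the integrated stress response, was at −0.05, and above 0 in some alternatives. CEBPB, which makes isoforms from several start codons, was at −0.46 ± 0.20, and AMD1, an enzyme of polyamine synthesis, was at 0.42 ± 0.18. Of mRNAs reported elsewhere to need EIF4G2, 6 of 11 were below 0 with a median of −0.08, and 0 had an unadjusted edgeR p under 0.05. Without scramble polysome replicate 1, 2 members lay below 0 and the median was 0.27. Without scramble polysome replicate 2 these values were 7 and −0.19, and without knockdown polysome replicate 2 they were 7 and −0.22. The direction of this list thus rests on which polysome library is used. CDKN1B, the cell cycle inhibitor p27, was at −0.14 ± 0.19. The eIF4F list had 6 of 16 below 0 (median 0.05), with PABPC1, the poly(A)-binding protein, at 0.71 ± 0.32. Its median was 0.25 without scramble polysome replicate 1 and −0.17 without replicate 2, where 11 lay below 0.

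For several lists the value differed without a library that stood apart. Nuclear-encoded subunits of oxidative phosphorylation had 59 of 71 below 0 and a median of −0.27, but 37 below 0 and a median of −0.02 without knockdown total replicate 1, the library with short transcripts per count. The 13 mitochondrially encoded mRNAs, which are translated inside mitochondria, all lay above 0 with a median of 0.37. Without scramble polysome replicate 1, the library with the low mitochondrial share, 8 lay below 0 and the median was −0.24. Fibroblast markers had a median of −0.57, with 9 of 11 below 0, and 0.07 with 5 below 0 without knockdown polysome replicate 1. Cytosolic ribosomal proteins had 43 of 75 below 0 and a median of −0.05. Without knockdown total replicate 1 they had 6 below 0 and a median of 0.25, and without replicate 2 they had 71 and −0.26. Without scramble polysome replicate 1 the values were 14 and 0.23, and without replicate 2 they were 69 and −0.25.

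Transcript features were computed for 11634 tested genes with a complete coding sequence in GENCODE, and are described without a test. The ratio change was lower for mRNAs of higher GC content, with medians from 0.09 in the lowest to −0.21 in the highest of 5 equal groups (Spearman rho −0.276, and −0.172 to −0.322 without any 1 library). Subtracting this trend left matrix genes with 37 members below 0 and a median of −0.27. At an unadjusted p under 0.05 recomputed from the edgeR standard errors, 4 were lower and 1 higher, where 2.05% of all genes were lower. Genes of collagen folding and crosslinking, at 19 of 27 below 0 and a median of −0.09 before, had 13 below 0 and a median of 0.05 after it. With transcript length the rho was 0.205, but −0.0207 without knockdown total replicate 1 and 0.376 without knockdown total replicate 2. Genes were also grouped by the bases around the start codon. With 0, 1 or 2 favourable bases (A or G at position −3, G at +4, counting the first base of the start codon as +1) the median was −0.02, −0.03 and −0.05. For the number of upstream ATG triplets the rho was 0.107, and for the length of the 5′ untranslated region it was 0.0586.

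**Figure D5:**
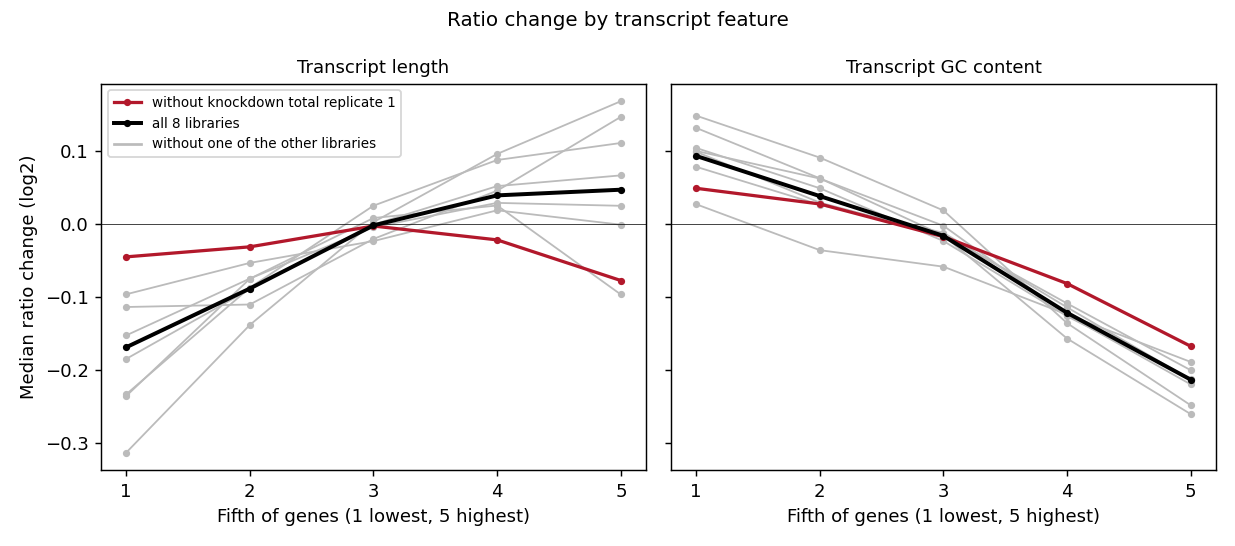
Median ratio change (y axis, log2) in 5 equal groups of genes ordered by transcript length (left) and by transcript GC content (right), with all 8 libraries (black) and without each library (red for knockdown total replicate 1). The GC curve falls from 0.09 to −0.21 with all libraries, and the length curve loses its slope without knockdown total replicate 1.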

How the data were processed

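Total and polysomal RNA was sequenced in 8 libraries. The values are raw gene counts, whole numbers that the authors deposited without normalization. Per the submitters' processing notes, the tools included HISAT2 2.1.0 and featureCounts of Subread 2.0.1 on GRCh38, with Trimmomatic 0.36, bcl2fastq 2.19.0, R 4.1.2 and DESeq2. Per the series' design text, polyadenylated RNA was enriched, so RNAs without a tail are poorly covered. Overlapping genes and near-identical copies are uncertain, because the annotation, the strand setting and the handling of multiple matches were not stated in the sources used. Besides the overlaps given with their genes, TAGLN (PCSK7), PPL (SEC14L5) and ARFRP1 (ZGPAT among others) overlap genes on the opposite strand. RAB8A overlaps HSH2D on the same strand. Further named genes also have overlaps.

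Groups came from the labels. Counts were scaled by TMM (factors 1.353 to 1.392 in total, 0.6727 to 0.7593 in polysome libraries), so levels are relative to other genes and not amounts per cell. Differences were fitted in 1 edgeR 4.0.16 quasi-likelihood model (R 4.3.3, robust, 4 residual degrees of freedom), with Benjamini-Hochberg adjustment over 13262 genes at 0.05. DESeq2 1.42.0, limma 3.58.1 voom, other scalings and filters, replicate blocks and leaving out each library were alternatives. The scripts were tested on simulated data. Start sites and transcript features were taken from GENCODE, with 12717 symbols (95.89%) matched.

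Members, the 34 gene lists (872 entries) and tests were chosen with earlier results of these data known. Named genes were EIF4G2, EIF4G1, OSBPL5, SPPL2B, TAGLN, CHAC1, the 10 genes of smallest p in each direction at a mean of at least 8 CPM after any called ones, and 2 members per list, those of smallest p. Further members are named as examples and were chosen after their values were seen. Some results are not reported here. Counting intervals and floors (95%, 3 counts) cover counting error only.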

Additional observations from a re-analysis of the deposited data

Results flagged for a closer look

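DESeq2, but not edgeR, called a difference between hairpins in the polysome-to-total log2 ratio for OSBPL5 (−2.16), SPPL2B (−1.33), EME2 (−8.05, a fitted value with 0 counts in both knockdown polysome libraries and so not a bound) and CDIP1 (3.64).

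In 24 further named genes both knockdown libraries lay on one side of both scramble libraries in total RNA and on the other side in polysomal RNA. The difference was not tested apart from the ratio change itself, which passed no adjusted threshold, and 3.21% and 2.38% of all tested genes had these 2 arrangements. Many of the 24 were named for a small p of this same ratio change or after their values were seen. Such a choice favours these arrangements, so their number cannot be compared with those shares. Higher in total and lower in polysomal RNA were TAGLN (−0.93), CCNL2 (−0.94), DAPK3 (−0.87), ARFRP1 (−0.99), WNT5B (−1.20), COL1A1 (−0.68), COL1A2 (−1.19), COL11A1 (−1.99), AGRN (−0.63), TPM2 (−0.79), SLC7A5 (−0.67), SLC3A2 (−0.62), BDNF (−0.90), FGF2 (−0.55), CDK2 (−0.47), AURKB (−0.56) and FZD8 (−1.39). Lower in total and higher in polysomal RNA were S1PR1 (1.61), PHF21A (1.29), RAB8A (1.03), AIDA (0.75), THBS2 (1.49), OSBPL9 (0.22) and AMD1 (0.42).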

How the results depend on the processing

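With 2 libraries per group the precision was set by the polysome replicates, whose biological coefficient of variation was 0.237 against 0.107 in total RNA. Of the 72 genes checked, 5 changed the sign of the ratio change in at least 1 of 21 alternatives (20 for 6 genes that a stricter count filter left out). ATF4 stood at 0.045 and 0.079 with the length or the GC trend subtracted and at −0.20 to 0.11 without 1 library. The other values without 1 library ran from −0.16 to 0.10 for OSBP, −0.0438 to 0.38 for OSBPL8, −0.0696 to 0.24 for SPPL3 and −0.30 to 0.48 for ACTA2. EdgeR called 0 genes for the ratio change under all alternatives except no filter on low counts (64), and 0 to 1 without 1 library (TRPM4 without knockdown polysome replicate 2). DESeq2 called 4. For polysomal RNA, 2 genes were called by edgeR, 230 by DESeq2, 502 with no filter, and 0 to 199 without 1 library (199 without knockdown polysome replicate 2). For total RNA these counts were 0, 24 (DESeq2), 38 (no filter), and 0 to 0 without 1 library. The cause was not tested.

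Correlations of same-numbered deviations between total and polysomal libraries were 0.021 in scramble and −0.0677 in knockdown cells. Between the hairpins they were −0.135 in total and 0.0792 in polysomal RNA. Whether same-numbered total and polysomal libraries came from the same culture cannot be decided from these values. The larger spread between polysome replicates could hide a shared difference. With a replicate block edgeR called 0 genes for the ratio change (614 at an unadjusted p under 0.05), and 0 with a block within hairpin (476). It called 0 in polysomal RNA with the block.

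The rho with transcript length reversed to −0.0207 without knockdown total replicate 1 and was 0.376 without knockdown total replicate 2. The median of the amino acid transporters was −0.49 to −0.28 without 1 library and −0.20 after subtracting the GC trend, an alternative added after seeing the data, as was leaving out each library for list counts and features.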

Other observations

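Of 31 tested cell cycle mRNAs 27 had a ratio change below 0, with a median of −0.12, where 54.2% of all tested genes lay below 0. CDK2, a cyclin-dependent kinase of DNA replication (−0.47), and AURKB, a mitotic kinase (−0.56), had an unadjusted edgeR p under 0.05. They make up 6.452% of the list, where 3.72% of all tested genes were lower at that p. Without scramble polysome replicate 1 the number below 0 was 17 and the median −0.05, and without replicate 2 the median was −0.21. Proteasome subunits had 23 of 29 below 0 (median −0.18) and aminoacyl-tRNA synthetases 14 of 19 (median −0.19), each with 0 members at an unadjusted edgeR p under 0.05. The proteasome median was −0.05 with 15 below 0 without knockdown total replicate 1 and −0.36 with 27 below 0 without replicate 2, and that of the synthetases was −0.24 to −0.10 without 1 library. Integrins and focal adhesion genes had 15 of 25 below 0, with ILK, a kinase-like adaptor of integrins, at −2.28 (−3.43 to −1.57 without 1 library). ILK overlaps 3 genes on the opposite strand, TAF10 among them, and no strand setting of the counting was given. Without knockdown total replicate 2, and with the GC trend subtracted, 11 lay below 0. Genes of sterol and fatty acid synthesis had 13 of 27 below 0 and a median of 0.00 (−0.07 to 0.09 without 1 library), with medians of −0.32 in total and −0.35 in polysomal RNA. Interferon response genes had 10 of 29 below 0 (median 0.09), with medians of −0.42 in total and −0.29 in polysomal RNA. Without knockdown polysome replicate 1 the ratio change was below 0 in 20 of them (median −0.17), and without scramble polysome replicate 2 in 19 (median −0.26).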
